A study of Mus musculus with 4 samples.

Results

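Fatty acid uptake and oxidation genes were followed in 4 mouse heart sections with immune checkpoint inhibitor (ICI) myocarditis or its treatment. The set holds 38 genes of the 19465 listed in every matrix, picked by symbol: 6 for uptake, 3 for storage, 7 for activation and mitochondrial import, 15 for beta oxidation and 7 regulators. The hearts came from wild type FVB/NJ mice. All had received an immunization with MyHCα peptide, from the alpha myosin heavy chain of cardiac muscle, and treatment with antibodies against PD-1 and CTLA-4, the ICIs. In 2 sections the mice received the ICIs alone, and in the other 2 they also received an antibody neutralizing IL-17A. No section from a mouse without ICIs or without immunization was analysed here, and the labels do not state whether sections came from separate animals, and the p-values cover no more than section-to-section spread. The labels give each group a batch 1 and a batch 2, used here as replicates 1 and 2, and values below are given in that order within each group. What a batch is was not stated, so fits with the batch number as a block assume that equal numbers belong together.

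The working heart burns mostly fatty acids. Lipoprotein lipase frees them from circulating fat, CD36, FATP1 and heart fatty acid-binding protein bring them into the cardiomyocyte, and acyl-CoA synthetase and the carnitine shuttle activate them and carry them into the mitochondrion. There the acyl-CoA dehydrogenases, hydratases, hydroxyacyl-CoA dehydrogenases and thiolases of beta oxidation shorten the chain step by step, under transcriptional control by PPARα, the PGC-1 coactivators and ERRα.

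The sections were formalin-fixed, paraffin-embedded tissue on Visium slides, where each spot holds RNA of several cells. Tissue covered between 2503 and 3052 spots per section. Unique molecular identifiers (UMIs) totalled 73167202 and 66255242 in the ICI-alone sections and 47882576 and 33005923 in the antibody sections. The sections shared 1670 barcodes, which name positions of the slide grid. Of 15 sarcomere markers 14 were listed and abundant in every section, summing to between 35192 and 81397 CPM (UMI counts scaled to a common library total). Immune-rich spots, those whose UMIs on 20 leukocyte genes reached 33 after thinning to 5000 UMIs, were 10.5% and 20.2% of the scored spots in the ICI-alone sections and 4.88% and 3.02% in the antibody sections. The members together gave 1320021 and 752769 raw UMIs in the ICI-alone sections and 1371267 and 793220 in the antibody sections. CPM values in the next paragraphs are scaled by TMM (trimmed mean of M values), a library scaling that down-weights extreme genes; levels are not compared between genes, because the data carry no per-length scale.

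Promoter sequences are shown for the divergent pair Hadha and Hadhb, which encode the subunits of one enzyme, for Acadm, a textbook target of nuclear receptors, and for Ucp3, which was higher with the antibody. RefSeq promoters (GRCm38.p6, the mm10 genome) were present for 31 of the 38 members. The 250 bases before each start were searched on both strands for 4 letter strings. Capitals mark a GC box (GGGCGGGG) in the stretch between the Hadha and Hadhb starts and the string AAGGTCA, the core bound by many nuclear receptors, in Acadm, where it is printed on the strand opposite the motif. The Ucp3 stretch held none of the 4. The stretches are chr5:30154981-30155252 (plus strand), chr3:153944644-153944893 (minus strand) and chr7:100472741-100472990 (plus strand).
Hadha-Hadhb: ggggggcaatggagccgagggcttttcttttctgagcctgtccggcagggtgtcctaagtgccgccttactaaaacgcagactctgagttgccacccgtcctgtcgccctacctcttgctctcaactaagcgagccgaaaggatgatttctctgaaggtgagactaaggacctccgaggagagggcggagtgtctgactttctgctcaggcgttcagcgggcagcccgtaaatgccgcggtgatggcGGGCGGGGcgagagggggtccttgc
Acadm: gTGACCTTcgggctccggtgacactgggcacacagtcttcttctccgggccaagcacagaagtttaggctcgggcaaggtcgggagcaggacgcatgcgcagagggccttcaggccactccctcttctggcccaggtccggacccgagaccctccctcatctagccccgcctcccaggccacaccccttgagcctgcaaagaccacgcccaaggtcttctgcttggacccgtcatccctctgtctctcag
Ucp3: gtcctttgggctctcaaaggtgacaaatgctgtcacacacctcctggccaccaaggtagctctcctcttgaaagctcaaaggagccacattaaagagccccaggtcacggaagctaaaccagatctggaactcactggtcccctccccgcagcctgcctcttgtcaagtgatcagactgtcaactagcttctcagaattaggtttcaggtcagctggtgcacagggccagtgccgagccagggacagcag
The GC box was found before 16 of the 31 members (51.6%) and before 24.1% of 17492 protein-coding genes. AAGGTCA was found before 1 member (3.23%) and 4.18% of genes. A pair of AGGTCA in direct repeat with 1 base of any kind between them, the element bound by PPAR with RXR, and TCAAGGTCA, the estrogen-related receptor element, which contains AAGGTCA, were found before none of the members and before 0.0515% and 0.360% of genes. These counts describe the letters of this window only.

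With the IL-17A antibody, whole-section levels were above those with ICIs alone in 37 of the 38 members, and 4 passed the test: Ucp3, Klf15 and Aqp7 rose and Angptl4 fell. The median log2 difference over the 38 members was 0.69, against 0.085 over all 18817 genes tested with edgeR's quasi-likelihood test (Benjamini-Hochberg adjusted p under 0.05). The members were chosen with earlier results of these data known, so setting them beside all genes is a description and not a test. Of all genes tested 3.03% were called higher and 8.81% lower. The groups did not overlap for 25 members that were higher and 1 that was lower, while 12 overlapped; of all genes, 36.0% did not overlap and were higher and 32.2% did not overlap and were lower. With the batch number as a block in the same test, 19 members rose and 1 fell, beside 8.06% and 12.3% of all genes. DESeq2 without the block called 14 members higher and 1 lower, and 803 and 2512 of all 18817 genes. The sarcomere list had a median of 0.56, with 13 of 14 genes higher and none called by edgeR without the block (4 at an unadjusted p under 0.05, 6 called by DESeq2); with the block edgeR called 1 higher. In whole-section sums fewer cardiomyocytes and less of an RNA per cardiomyocyte cannot be told apart.

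**Figure D1:**
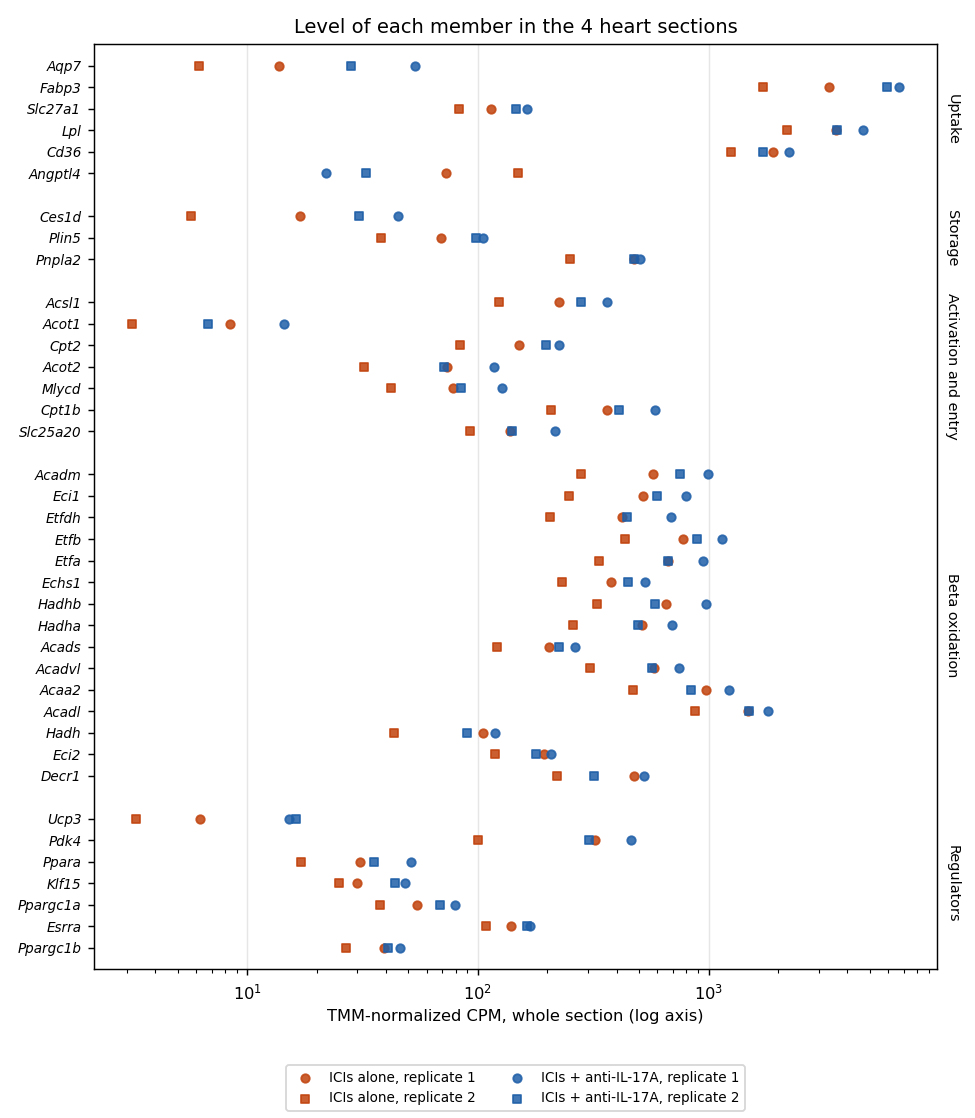
TMM-normalized CPM (log axis) of the 38 members in the 4 whole sections, 1 point per section, ordered by step. For 25 members both antibody sections lie above both ICI-alone sections, and Angptl4 has the opposite order.

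Sections of the same group differed as well. ICI-alone replicate 2 was below replicate 1 in 37 members, by a median of -0.88 on the log2 scale, whereas the median over all genes was 0.007. Antibody replicate 2 was below replicate 1 in 36 members (median -0.37). Antibody replicate 2 was also the section with atrial tissue: the atrial gene Myl7 had 535 CPM there and 0.960 CPM or less in the others, and Sln 147 CPM against 0.628 CPM or less. By Myl7, Myl4, Sln and Bmp10 it held 165 atrial-rich spots (over 0.5% of UMIs) and the others 0, and without these spots 3 members rose and 1 fell, with a median of 0.71. Within batch 1 the median difference with the antibody was 0.56 and within batch 2 it was 0.97, and 37 members were higher with the antibody in both. The leukocyte panel summed to 4119.6 and 4718 CPM with ICIs alone and 2108 and 2575 CPM with the antibody, and the 7 fibroblast markers to 10065, 20946, 2551 and 2661 CPM; the part of these differences in the members' differences was not tested.

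Among the uptake genes 1 rose, 1 fell and 4 did not pass by edgeR without the block, where 3.03% and 8.81% of all genes were called. DESeq2 called 3 of the uptake genes higher and 1 lower. Angptl4, the secreted inhibitor of lipoprotein lipase (chr17:33774900-33781575), stood at 73.0 and 149 CPM with ICIs alone and 21.9 and 32.7 CPM with the antibody. It was the member that fell, by 2.03 ± 0.35 on the log2 scale (SE; adjusted p = 0.0236, edgeR), and both antibody sections lay below both ICI-alone sections. Its adjusted p was 0.0612 without antibody replicate 1. Aqp7, the channel for glycerol (chr4:41033074-41048237), stood at 13.8 and 6.16 CPM with ICIs alone and 53.5 and 28.1 CPM with the antibody. It rose by 2.04 ± 0.42 (adjusted p = 0.0321, edgeR; 0.0775 without antibody replicate 1). Aqp7 is also an adipocyte gene, and the 6 adipocyte markers summed to 12.4, 2.54, 8.10 and 5.23 CPM, and 5 of the 6 were under 0.5 CPM in at least 1 section; their part in the Aqp7 values was not tested. Without adipocyte-rich spots edgeR called 4 members higher and 1 lower.

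Fabp3, the heart fatty acid-binding protein, had 3340.5 and 1721 CPM with ICIs alone and 6663 and 5913 CPM with the antibody. The groups did not overlap, and the difference of 1.31 ± 0.45 did not pass (adjusted p = 0.0897 by edgeR, 0.0512 with the block). Slc27a1, which encodes the fatty acid transporter FATP1, had 114 and 83.0 CPM against 164 and 147 CPM. It passed with the block (log2 difference 0.67, adjusted p = 0.0329) and not without it (adjusted p = 0.0720, edgeR). Lpl, lipoprotein lipase, had 3574 and 2188 CPM against 4665 and 3615 CPM. Cd36, the membrane receptor for fatty acids, had 1909.6 and 1257 CPM against 2225 and 1729 CPM, and its groups overlapped. Neither Lpl (adjusted p = 0.361) nor Cd36 (adjusted p = 0.506) passed in edgeR, with or without the block. Endothelial cells also carry CD36, and the 10 endothelial markers summed to 875, 737, 1010.1 and 943 CPM; their part in the Cd36 values was not tested.

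Of the 3 storage genes, none passed without the block (2 at an unadjusted p under 0.05 in edgeR, 1 called by DESeq2). With the block 2 rose, beside 8.06% of all genes called higher. Ces1d, a carboxylesterase that hydrolyses stored triglyceride, had 16.9 and 5.72 CPM with ICIs alone and 44.9 and 30.5 CPM with the antibody. Its difference of 1.74 ± 0.45 had an adjusted p of 0.0509 by edgeR and 0.0131 with the block. Plin5, the perilipin that links lipid droplets to mitochondria, had 69.3 and 38 CPM against 105 and 98.0 CPM (0.92 ± 0.27, adjusted p = 0.0644 by edgeR, 0.0275 with the block). Both genes were higher in both antibody sections than in either ICI-alone section. Pnpla2, adipose triglyceride lipase, had 477 and 252 CPM against 502 and 474 CPM, and its groups overlapped by the ICI-alone replicate 1 value lying above that of antibody replicate 2.

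All 7 activation and import genes were higher with the antibody, with a median of 0.84. None passed without the block (4 at an unadjusted p under 0.05 in edgeR, 3 called by DESeq2). With the block all 7 rose, beside 8.06% of all genes called higher. Acsl1, the main acyl-CoA synthetase of heart, had 225 and 123 CPM with ICIs alone and 362 and 281 CPM with the antibody (adjusted p = 0.0282 with the block, edgeR). Cpt1b, the muscle carnitine palmitoyltransferase of the outer membrane, had 362 and 208 CPM against 583 and 410.3 CPM (blocked adjusted p = 0.0353, edgeR). Cpt2, its partner on the inner membrane, had 150.0 and 84.0 CPM against 224 and 197 CPM (blocked adjusted p = 0.0323, edgeR). For these enzymes the groups did not overlap, and ICI-alone replicate 2 was the lowest section.

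Slc25a20, the carnitine-acylcarnitine carrier, had 137 and 92.0 CPM against 215 and 141 CPM. Mlycd, malonyl-CoA decarboxylase, which removes the inhibitor of CPT1, had 78.2 and 42.2 CPM against 127 and 84.3 CPM. In both, antibody replicate 2 lay close above ICI-alone replicate 1. The acyl-CoA thioesterases Acot1 (8.45 and 3.18 against 14.4 and 6.76 CPM) and Acot2 (73.6 and 32.0 against 118 and 71.2 CPM) overlapped between groups. Acot1 and Acot2 are near-identical copies, and how the probes separate them is not stated, so their counts are uncertain.

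**Figure D2:**
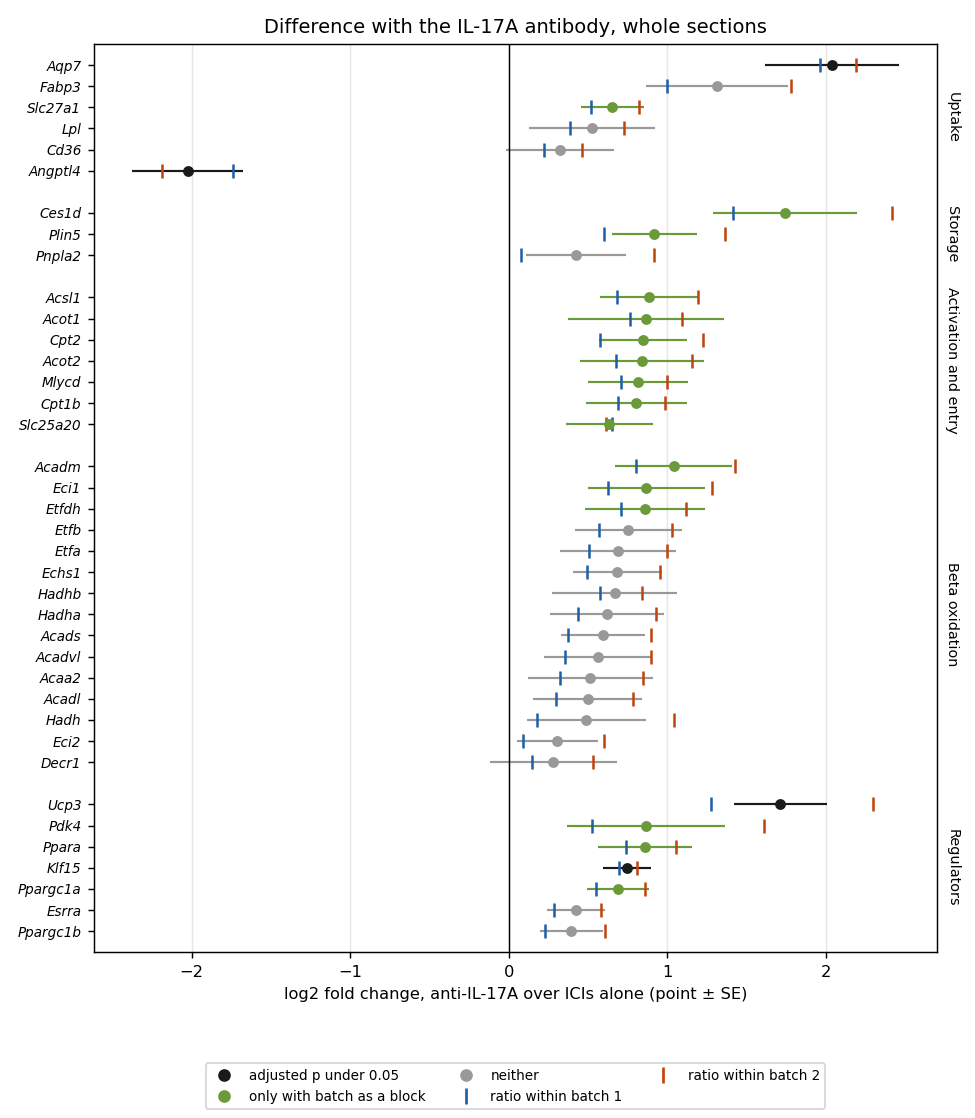
log2 fold change of each member, antibody over ICIs alone, from whole sections (points, with SE as bars; edgeR), in black for members past the adjusted p threshold, green for those past it only with batch as a block and gray for neither; ticks give the ratio within batch 1 (blue) and batch 2 (orange). All members but Angptl4 lie to the right of 0, from 0.28 for Decr1 to 2.04 for Aqp7.

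The 15 beta oxidation genes were all higher with the antibody, with a median of 0.62 on the log2 scale. None passed in edgeR without the block (2 at an unadjusted p under 0.05, 3 called by DESeq2). With the block 3 rose, beside 8.06% of all genes called higher. Acadm, the medium-chain acyl-CoA dehydrogenase whose promoter is printed above, had 571 and 281 CPM with ICIs alone and 997 and 755 CPM with the antibody. Its difference was 1.04 ± 0.37 (adjusted p = 0.0977 by edgeR, 0.0325 with the block), and the groups did not overlap. Eci1, an enoyl-CoA isomerase for unsaturated chains, had 521 and 247 CPM against 802 and 600.2 CPM (blocked adjusted p = 0.0429, edgeR). Etfdh, which passes electrons from the dehydrogenases to ubiquinone, had 420.4 and 205 CPM against 688 and 445 CPM (blocked adjusted p = 0.0339, edgeR). In these 3 genes as well ICI-alone replicate 2 was the lowest section.

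The electron-transfer flavoprotein genes Etfa (664 and 336 against 942 and 670.0 CPM) and Etfb (773 and 434 against 1147 and 888 CPM) did not overlap between groups and did not pass. The trifunctional protein subunits Hadha (515 and 259 against 696 and 493 CPM) and Hadhb (652 and 328 against 970.4 and 586 CPM), which start on opposite strands of the stretch printed above, ranked the 4 sections alike, and their groups overlapped. Short-chain Acads (202 and 121 against 263 and 226 CPM), long-chain Acadl (1476 and 871 against 1816 and 1502 CPM) and the hydratase Echs1 (379 and 230.4 against 532 and 447 CPM) did not overlap and did not pass. Acadvl, Hadh, Acaa2, Eci2 and Decr1 overlapped, with log2 differences between 0.28 (Decr1, the reductase for polyunsaturated chains; adjusted p = 0.620, edgeR) and 0.56 (Acadvl, the very long-chain dehydrogenase). Without ICI-alone replicate 2 the differences of Hadh, Eci2 and Decr1 were below 0, at -0.0067, -0.0037 and -0.16 in that order, and that of Decr1 was -0.13 without antibody replicate 1.

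Of the 7 genes listed as regulators, which include the carrier Ucp3 and the kinase Pdk4, 2 rose by edgeR without the block and 5 with it. Of all genes 3.03% and 8.06% were called higher in these fits. DESeq2 called 4 of the 7 higher. Ucp3, a mitochondrial carrier whose gene is a target of PPARα in muscle (chr7:100472991-100486432), had 6.27 and 3.31 CPM with ICIs alone and 15.2 and 16.2 CPM with the antibody. It rose by 1.71 ± 0.29 (adjusted p = 0.0237, edgeR) and passed in every alternative run on whole sections, with adjusted p between 1.61e-06 and 0.0443. Ucp3 is also known from brown fat. The 5 brown adipocyte markers summed to 1332, 728, 1782 and 1353 CPM, mostly Cox8b (1305, 709, 1761 and 1333 CPM). Cidea had between 17.6 and 26.9 CPM and Ucp1 between 0.254 and 0.654 CPM. In immune-rich against other spots Cox8b differed by -2.89 on the log2 scale and the sarcomere genes by a median of -2.73 (edgeR). The part of brown fat in the Ucp3 values was not tested. Klf15, a transcription factor of cardiac lipid use (chr6:90461043-90491803), had 29.9 and 25.1 CPM against 48.4 and 43.9 CPM. It rose by 0.75 ± 0.15 (adjusted p = 0.0296, edgeR), and its adjusted p was 0.107 without antibody replicate 1 and 0.0611 without antibody replicate 2.

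Ppargc1a, the coactivator PGC-1α, had 54.3 and 37.8 CPM with ICIs alone and 79.6 and 68.7 CPM with the antibody (adjusted p = 0.0624 by edgeR, 0.0232 with the block). Ppara, the nuclear receptor PPARα, had 30.8 and 17 CPM against 51.4 and 35.4 CPM (0.0915 and 0.0163). Pdk4, the kinase that restrains pyruvate oxidation, had 320.3 and 99.7 CPM against 461 and 304 CPM; it passed only with the block among these edgeR fits (adjusted p = 0.0481), and its groups overlapped. Ppargc1b (39.1 and 26.7 against 45.7 and 40.7 CPM) and Esrra, which encodes ERRα (139 and 109 against 169 and 163 CPM), did not overlap between groups and passed in neither fit.

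Of 55 other genes of fatty acid handling 4 rose and 4 fell by edgeR, beside 3.03% and 8.81% of all genes. Over the 55 the median was 0.46. With the block 17 rose and 5 fell, beside 8.06% and 12.3% of all genes. Plin2, the perilipin of lipid droplets in many cell types, had 291 and 314 CPM with ICIs alone and 142 and 124 CPM with the antibody. Its fall was 1.19 on the log2 scale (log2 difference -1.19, adjusted p = 0.0225, edgeR). Fabp5, a fatty acid-binding protein of macrophages and endothelium, fell with 218 and 297 CPM against 139.9 and 91.9 CPM (adjusted p = 0.0381, edgeR). Acsl6, Nr1d1, Dgat2 and Esrrg rose, and Acsl4 and Acaca fell. Of 16 listed genes of glucose use none passed by edgeR without the block (4 at an unadjusted p under 0.05, 3 called by DESeq2) and 4 rose with it. Their median was 0.48.

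Per 100 UMIs of the sarcomere genes, the members together gave 34 and 32.3 UMIs with ICIs alone and 35.2 and 34.9 UMIs with the antibody. The rise of Fabp3 alone, whose values are given below, was larger than the rise of this sum. Without Fabp3 the sum of the other members was lower with the antibody. On this scale 22 members were higher with the antibody and 16 lower, with a median log2 ratio of 0.029; 12 did not overlap between groups in the higher direction and 6 in the lower. Of all 18817 genes on this scale, 3.37% did not overlap and were higher and 54.8% did not overlap and were lower. Aqp7 (log2 ratio 1.39), Ces1d (1.17), Ucp3 (1.10) and Fabp3 (0.69) were higher in both antibody sections than in either ICI-alone section. Klf15, which was called higher in whole sections, overlapped between groups on this scale (log2 ratio 0.032). Fabp3 had 5.75 and 5.02 UMIs per 100 sarcomere UMIs with ICIs alone and 8.19 and 9.16 UMIs with the antibody. Angptl4 (-2.85), Cd36 (-0.36), Eci2 (-0.35), Ppargc1b (-0.28), Acadl (-0.16) and Lpl (-0.14) were lower on this scale in both antibody sections. Sarcomere genes did not move alike. Myh6 had 9977 and 4650 CPM with ICIs alone and 22277 and 16722 CPM with the antibody. Tnnt2 had 13938 and 9196 CPM against 12700 and 11211 CPM, and its groups overlapped. A ratio to single sarcomere genes can therefore differ in size and direction from a ratio to their sum. These ratios carry no test and are not levels per cardiomyocyte.

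In spots outside the immune-rich class, 4 members rose and 1 fell with the antibody by edgeR, where 3.17% of 18313 genes were called higher and 8.67% lower. Ces1d joined Aqp7, Ucp3 and Klf15. It had 18.4 and 7.70 CPM with ICIs alone and 48.0 and 30.9 CPM with the antibody in these spots (1.59 ± 0.37, adjusted p = 0.0350, edgeR). Angptl4 had 65.8 and 149.5 CPM against 19.2 and 30.9 CPM and fell by 2.11 (adjusted p = 0.0200, edgeR). The median over members was 0.57, against 0.054 over all genes. In these spots the sarcomere list had a median of 0.39, with 11 of 14 genes higher. EdgeR called none of them (3 at an unadjusted p under 0.05), and DESeq2 called 5 higher and 1 lower. All 7 fibroblast markers were called lower by edgeR (median -2.37), as were 8 of the 20 leukocyte panel genes (median -0.67). The part of tissue make-up in the members' differences here was not tested. With the block 28 members rose and 1 fell, beside 12.1% and 16.3% of all genes. Leaving out either antibody section, or every spot within 2 grid steps of an immune-rich spot, left no member called by edgeR (6, 18 and 5 members at an unadjusted p under 0.05 without antibody replicate 1, without antibody replicate 2 and beyond 2 steps; DESeq2 was not run on these subsets). Few genes of any kind were called there: 0.165%, 0.00537% and 0.00633% of all tested, in that order, with 4917, 4202 and 3000 at an unadjusted p under 0.05.

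Immune-rich spots held less of 37 members than the other spots of the same sections, and more Angptl4. Of all 16055 genes tested 22.5% were called higher and 23.3% lower in immune-rich spots (edgeR with section as a block, the 20 panel genes left out). The median over members was -2.25 on the log2 scale and over all genes 0.12. The sarcomere sum differed by -2.47 and -2.78 in the ICI-alone sections and -4.28 and -1.76 in the antibody sections. Between these spot classes, too, fewer cardiomyocytes and less of an RNA per cardiomyocyte cannot be told apart. Members ranged from -4.05 ± 0.27 for Aqp7 (adjusted p = 0.000242) to -0.88 ± 0.21 for Slc27a1 (adjusted p = 0.0109).

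**Figure D3:**
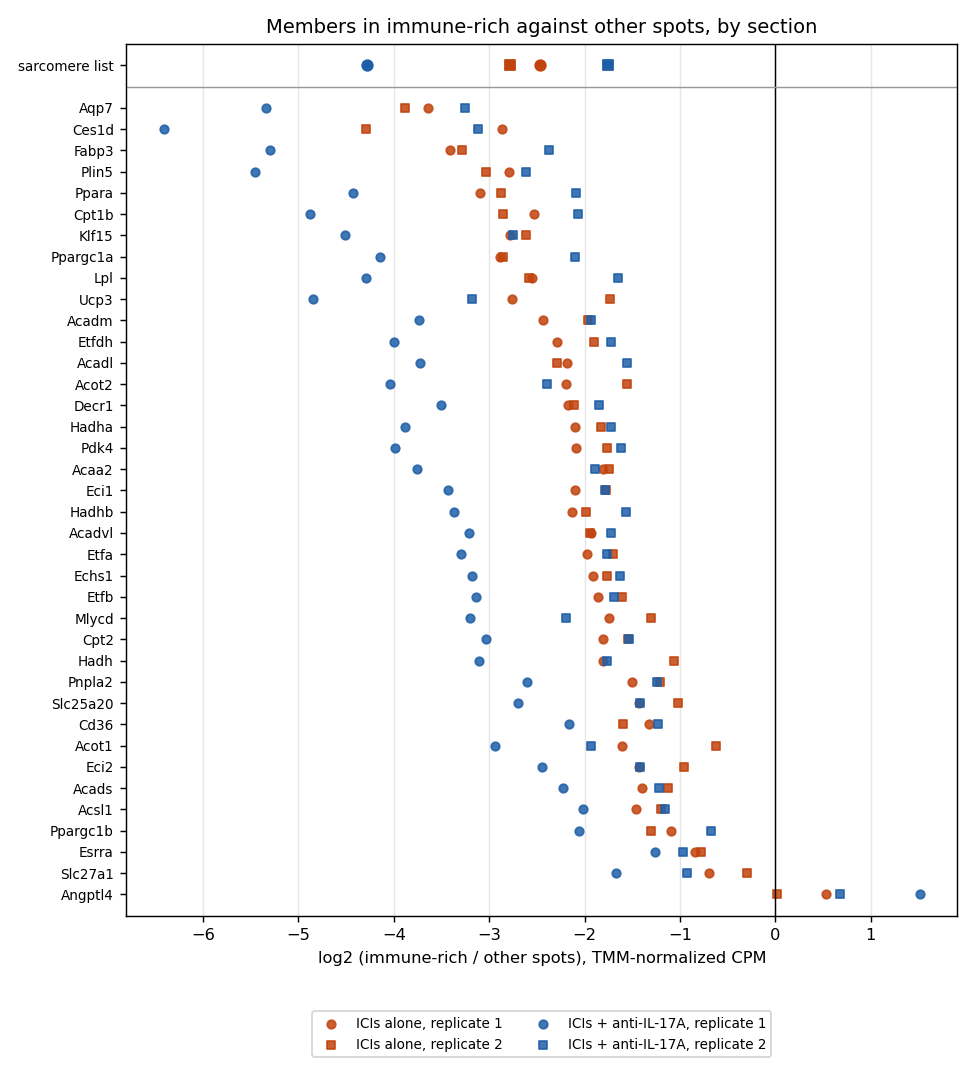
log2 ratio of TMM-normalized CPM in immune-rich over other spots for each member, 1 point per section, with the sarcomere sum of each section for comparison. Angptl4 lies at or above 0 in all 4 sections, Aqp7, Ces1d, Fabp3 and Plin5 lie farthest to the left, and antibody replicate 1 is the lowest section for most members.

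Measured against the sarcomere sum of the same section, 19 members lay above the sarcomere difference in all 4 sections and 6 lay below it in all 4. The 19 include Angptl4, which did not fall, and the median over all genes (0.12) also lay above the sarcomere differences. The 6 were Aqp7, Ces1d, Fabp3, Plin5, Ppara and Cpt1b. Fabp3 differed by -3.41 and -3.29 in the ICI-alone sections and -5.29 and -2.38 in the antibody sections. Esrra differed by -0.84, -0.78, -1.26 and -0.97 in the same order, and Slc27a1 by -0.69, -0.29, -1.67 and -0.93, so both stayed closer to their level in other spots than the sarcomere genes did. By step the medians were -2.16 for uptake, -3.24 for storage, -1.95 for activation, -2.25 for beta oxidation and -2.70 for regulators.

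Angptl4 was higher in immune-rich spots by 0.54 and 0.02 in the ICI-alone sections and 1.51 and 0.68 in the antibody sections. The fitted difference was 0.66 ± 0.22 (adjusted p = 0.0404, edgeR). It did not pass without ICI-alone replicate 1 (adjusted p = 0.0975), antibody replicate 1 (0.0568) or antibody replicate 2 (0.112), or with immune-rich spots set at 5% in place of 10% (0.105). Among the other fatty acid genes, 6 were called higher in immune-rich spots, Acsl4, Acsl5, Plin2, Fabp5, Cpt1a and Acaca, and 37 lower. Plin2 was higher by 1.64 and Fabp5 by 1.67 on the log2 scale.

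The test of whether this spatial difference depended on treatment called no member, and 0% of all 18091 genes, by edgeR (7 members and 1575 genes at an unadjusted p under 0.05); DESeq2 called no member and, of all genes, 14 higher and 2 lower. Without antibody replicate 2 it called 1 member higher and 35 lower, beside 3.32% and 8.40% of all genes, and without antibody replicate 1 it called none. The median interaction over members was -0.70 with all sections, -1.55 without antibody replicate 2 and 0.22 without antibody replicate 1. With immune-rich spots set at 5%, 7 members were called lower and none higher, beside 0.580% and 1.35% of all genes.

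Counted outward from the immune-rich spots, the members' summed level rose ring by ring in every section. Here CPM is scaled by library size alone, and rings are 0 (the immune-rich spots), 1, 2, 3 to 4, and 5 or more grid steps. ICI-alone replicate 1 went from 5168 CPM in the immune-rich spots to 31109.9 CPM at 5 or more steps, and ICI-alone replicate 2 from 3885 to 25109 CPM. Antibody replicate 1 went from 3526 to 35457 CPM and antibody replicate 2 from 8385 to 28673 CPM. The log2 ratios of the outermost to the innermost ring were 2.59 and 2.69 in the ICI-alone sections and 3.33 and 1.77 in the antibody sections.

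**Figure D4:**
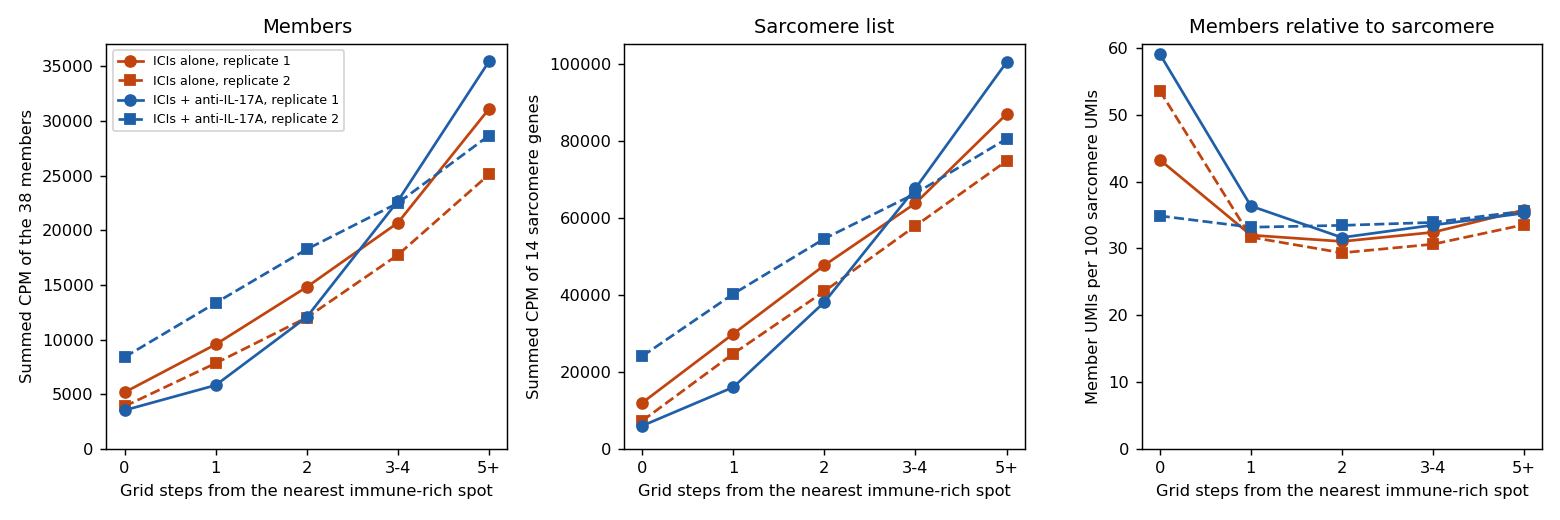
Summed CPM (library-size scaling) of the 38 members and of 14 sarcomere genes, and member UMIs per 100 sarcomere UMIs, by grid steps from the nearest immune-rich spot, with 1 line per section. Both sums rise outward in all 4 sections, while the ratio to sarcomere genes is highest in the immune-rich spots of 3 sections and lies between 29.4 and 36.4 elsewhere.

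Per 100 sarcomere UMIs the members gave 43.3 and 53.6 UMIs in the immune-rich spots with ICIs alone and 59.1 and 34.9 UMIs with the antibody. From 1 step outward the ratio lay between 29.4 and 36.4 in every section. At 5 or more steps the ratio was 35.8, 33.6, 35.3 and 35.6.

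Single members kept their own profiles. Fabp3 rose from 362 to 6392 CPM and from 259 to 4778 CPM across the rings with ICIs alone, and from 243 to 8372 CPM and from 1445 to 7738 CPM with the antibody. Aqp7 rose from 1.28 to 30.6 CPM, 0.623 to 23.1 CPM, 1.89 to 70.9 CPM and 3.75 to 42.4 CPM in the same order of sections. Even at 5 or more steps, Aqp7 and Fabp3 were higher in both antibody sections than in either ICI-alone section. Lpl at that distance had 5776 and 5457 CPM with ICIs alone and 5820.1 and 4534 CPM with the antibody, and its groups overlapped. Klf15 had 53.8 and 70.8 CPM with ICIs alone and 61.5 and 60.9 CPM with the antibody there, and these overlapped as well.

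Angptl4 ran the other way. With ICIs alone it had 100.3 and 168 CPM in the immune-rich spots, 104 and 198 CPM at 1 step, and 21.3 and 46.4 CPM at 5 or more steps. With the antibody it had 73.4 and 62.2 CPM in the immune-rich spots, 71.1 and 62.6 CPM at 1 step, and 7.85 and 23.1 CPM at 5 or more steps. In each ring up to 3 to 4 steps both antibody sections lay below both ICI-alone sections, and at 5 or more steps antibody replicate 2 lay above ICI-alone replicate 1. Slc27a1 was nearly flat near the immune-rich spots, with 75.4, 79.9, 71.9 and 95.9 CPM in them and 71.0, 69.7, 66.7 and 103 CPM at 1 step, and rose to between 134 and 196 CPM at 5 or more steps.

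**Figure D5:**
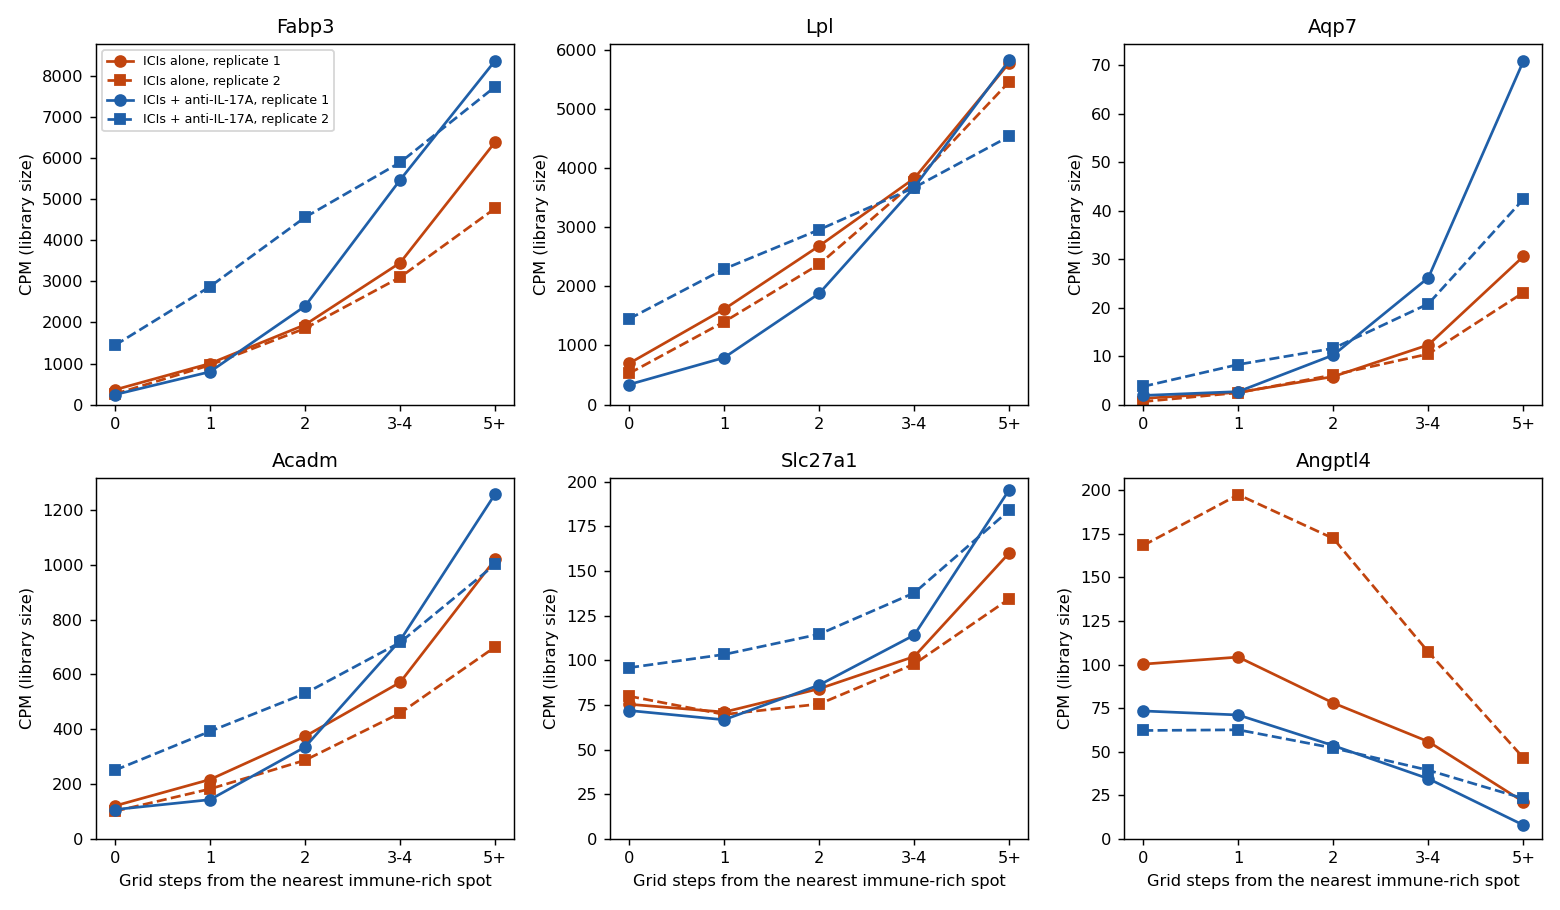
CPM (library-size scaling) of 6 members by grid steps from the nearest immune-rich spot, 1 line per section, with Fabp3, Lpl, Aqp7, Acadm, Slc27a1 and Angptl4 in separate panels. Angptl4 is lowest at 5 or more steps in all 4 sections, whereas Fabp3, Lpl, Aqp7 and Acadm are highest there.

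Between the edge of the tissue and its interior no member differed by edgeR (1 at an unadjusted p under 0.05; DESeq2 called none), where 0.631% of 13149 genes were called. The median over members was -0.16 and over all genes -0.021. Edge spots have under 6 neighbouring spots under tissue, interior spots lie at least 3 steps inside, and immune-rich spots were left out of both.

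The authors' deposited table scores each gene in each section by Moran's I, which is near 0 for a gene scattered over the spots and near 1 for a gene concentrated in neighbouring spots. In the authors' deposited table the members' median score was 0.537 and 0.421 in the ICI-alone sections and 0.412 and 0.207 in the antibody sections, against medians of 0.0180, 0.0155, 0.0179 and 0.00869 over all listed genes. Fabp3 scored highest among members in that deposited table, with 0.896, 0.847, 0.884 and 0.732. The score moves with depth, and the members' UMI totals ranged from 216 to 319137 across genes and sections.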

How the data were processed

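Matrices of unnormalized UMI counts, 1 per Visium library (4 in all), were deposited for spots covered by tissue. They were written by Space Ranger 2.1.0, per the file headers. Per the submitters' processing notes, the genome was mm10 and Seurat 5.1.0 was used; the probes and annotation are not given in the sources used here. The authors also deposited Moran's I per gene, a score with no fixed range, with an adjusted p-value that was not used.

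The section was the replicate. Counts were summed per section and spot class, filtered with filterByExpr, scaled with TMM and tested over all genes with edgeR 4.0.16 (R 4.3.3, limma 3.58.1; sums with Python 3.11.15) at a Benjamini-Hochberg adjusted p of 0.05, by group or with the section as a block; DESeq2 1.42.0 was an alternative. Spots were thinned to 5000 UMIs and called immune-rich at 33 panel UMIs, set so that no more than 10% of spots reached it, each section having equal weight; spots below that depth were not scored. Other alternatives were scaling, filters, thresholds, spot subsets, leaving out each section and the batch number as a block. The labels name the number as a batch but do not say what a batch is. That equal numbers pair sections across groups is an assumption of the blocked fit. Deviations of same-batch sections correlated at 0.182 over 18817 genes, and the common biological coefficient of variation was 17.0%.

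Members are named by a fixed list and step; values per section are given for those past the threshold in either whole-section edgeR fit and for others of each step, some of which were added beyond the planned 1 to 4 with the smallest p. The members and lists were chosen with earlier results of these data known. Fits were tested on simulated data. Sections totalled 33005923 to 73167202 UMIs, and 5000 UMIs set the depth of spot scores. Ldha, Ldhb, Mpc1 and Actc1 were not analysed here.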

Additional observations from a re-analysis of the deposited data

How the results depend on the processing

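Whole-section calls of members were 4 in the reported fit and moved by over 1.5 times under some alternatives. They were 20 with the replicate block, 15 with DESeq2 and 12 with library size scaling, and ranged from 1 to 33 when single sections were left out: 33 without ICI-alone replicate 1, 5 without ICI-alone replicate 2, 1 without antibody replicate 1 and 3 without antibody replicate 2. Calls over all genes moved too, from 571 higher and 1658 lower to 1517 and 2313 with the block, 803 and 2512 with DESeq2, 1554 and 2925 without ICI-alone replicate 1, 916 and 1480 without ICI-alone replicate 2, 79 and 250 without antibody replicate 1 and 134 and 381 without antibody replicate 2. The other 9 alternatives on whole sections gave 4 to 6 calls. Outside immune-rich regions the 5 calls became 29 with the replicate block, 11 with DESeq2, 9 with library size scaling, 3 at the 20% threshold and 0 beyond 2 steps, and ranged from 0 to 18 with single sections left out (18 without ICI-alone replicate 1). The treatment by spot class test went from 0 calls to 7 at the 5% threshold, and from 0 to 36 with single sections left out. The immune-rich comparison gave 37 or 38 calls and the edge comparison 0 in all alternatives run.

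Signs of the treatment difference in single members reversed in 12 cases, none past the threshold. With single sections left out, whole-section differences ranged from -0.0067 to 1.2 for Hadh, -0.0037 to 0.64 for Eci2 and -0.16 to 0.88 for Decr1; their lowest values were without ICI-alone replicate 2, and Decr1 was also below 0 (-0.13) without antibody replicate 1. Outside immune-rich regions the ranges were -0.048 to 0.39 for Cd36, -0.028 to 0.74 for Pnpla2, -0.078 to 1.08 for Hadh, -0.066 to 0.53 for Eci2 and -0.31 to 0.65 for Decr1. Cd36 and Decr1 were lowest without antibody replicate 1 and also below 0 (-0.00072 and -0.25) without ICI-alone replicate 2, and the other 3 were lowest without ICI-alone replicate 2. Decr1 was at -0.095 beyond 2 steps. The cause was not tested. In the treatment by spot class test 1 member was above 0 with all sections and 27 without antibody replicate 1, and in the edge comparison 7 with all sections, 20 without antibody replicate 2 and 14 with library size scaling.

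Library size scaling moved the median of all genes in whole sections from 0.085 to 0.18, outside immune-rich regions from 0.054 to 0.16 and in the immune-rich comparison from 0.12 to 0.37. It changed the split of all whole-section calls from 571 higher and 1658 lower to 840 higher and 1029 lower, and that of the immune-rich comparison from 3606 and 3744 to 5595 and 2682. The 37 higher members kept their sign under this scaling. Dropping atrial-rich spots by the rule without Nppa, an atrial marker that stressed ventricle also expresses, left 4 calls; this rule was chosen after seeing the data. With 2 sections per group the fits rest on few degrees of freedom, and the lone section of a reduced group is assumed to vary like the other group.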
